A study of Bos taurus with 138 samples.

Results

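N6-methyladenosine (m6A) is a methyl mark on adenosines inside messenger RNA, and the genes that place, read and remove it were followed here from the bovine oocyte to the blastocyst. The group held 10 genes listed by name out of the 16706 gene symbols in the deposited table. They were 3 writers (METTL3, METTL14 and WTAP), 5 readers of the YTH family (YTHDF1, YTHDF2, YTHDF3, YTHDC1 and YTHDC2) and 2 erasers (FTO and ALKBH5). All 10 were in the table, and all 10 passed the filter on low counts. For each of them the level in whole oocytes or embryos (the transcriptome) was set beside the level in the heavy part of sucrose gradients (polysome-occupied mRNA) at 6 stages.

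The oocytes came from small antral follicles of slaughterhouse Bos taurus ovaries and were sampled at the germinal vesicle stage (GV) and, after maturation in vitro, at metaphase II (MII). The embryos were made by fertilization in vitro with semen of 1 Holstein bull, cultured in vitro and sampled as 2-cell embryos, 8-cell embryos, morulae and blastocysts. Cycloheximide was added before every collection to hold ribosomes on the mRNA, the zona pellucida was removed, and each library came from a pool of oocytes or embryos. There was no treatment or genotype, and so each stage was compared with the other stages and each gradient with the transcriptome of its stage. Each stage had 2 gradients (A and B), cut into 10 fractions (F1 at the top, F10 at the bottom) and loaded with a cleared lysate, and 3 transcriptomes (A, B and C).

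The writers METTL3 and METTL14 form the methyltransferase heterodimer, in which METTL3 carries the catalytic site and METTL14 helps to bind RNA, while WTAP is the adaptor that holds the complex in nuclear speckles. YTH proteins bind the mark directly. YTHDF2 is best known for recruiting deadenylases to maternal mRNA, YTHDF1 and YTHDF3 act on mRNA in the cytoplasm, YTHDC1 acts on nuclear processing and export, and YTHDC2 is a helicase needed in meiotic germ cells. FTO and ALKBH5 are demethylases that oxidize the methyl group away. Around fertilization the embryo lives on mRNA stored by the oocyte, and in cattle its own genome is activated mainly around the 8-cell stage.

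Fraction libraries held 1229382 to 17342859 expected counts and transcriptomes 3269386 to 11812567. The polysome pool of a gradient was the sum of F8, F9 and F10, between 22543743 and 39380629 counts. Levels are in CPM, a gene's count scaled to the total of its library after TMM scaling, and so are shares of a library. Each fraction was sequenced to its own depth, so a level says what share of the RNA in that fraction came from a gene, not what share of the gene's mRNA lay there. Levels do not give the amount of a gene's mRNA per cell or per embryo. Fraction libraries of the later stages were sparser, with a median of 12918 genes detected in GV fractions and 9507.5 in 8-cell fractions, whereas 8-cell transcriptomes held 13945 to 14333. The F1 library of blastocyst gradient B (4951 genes), F9 of morula gradient A (5714) and F7 of 8-cell gradient A (6644) held the fewest. Pearson's r between the pools of a stage, across 14612 genes that are not independent replicates, was lowest for 8-cell embryos (0.822) and morulae (0.868), and was 0.972 (GV), 0.940 (MII), 0.960 (2-cell) and 0.944 (blastocyst) elsewhere. Each library or pool of a comparison was left out in turn, and the calls that this ended or made are named with the results.

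Markers were checked against the stage labels. All 10 oocyte markers (GDF9, BMP15, ZP3 and others) averaged at least 1 CPM in GV, MII and 2-cell libraries, with a summed level of 16600 to 17800 CPM in GV transcriptomes 49.7 to 275 CPM in morula transcriptomes and 198 to 939 CPM in blastocyst transcriptomes. In morula transcriptomes 9 of these markers averaged at least 1 CPM and in blastocyst transcriptomes all 10 did. The 6 trophectoderm markers summed to 53.7 to 63.5 CPM in GV transcriptomes and to 5060 to 5920 CPM in blastocyst transcriptomes. Of the 11 markers of cumulus and granulosa cells, 4 averaged at least 1 CPM in GV transcriptomes, 7 in MII, 4 in 2-cell and 9 in 8-cell transcriptomes. In morula transcriptomes 5 did and in blastocyst transcriptomes 6. Their summed level was 521 to 654 CPM in GV transcriptomes, 174 to 420 CPM in 8-cell embryos and 15.0 to 22.5 CPM in morulae. FOXL2 was at 0 in GV, MII and 2-cell transcriptomes, whereas no marker of this list was at 0 in all 8-cell transcriptomes. The markers of the inner cell mass (2 of 3 in the table) summed to 145 to 185 CPM in blastocyst transcriptomes, 377 to 479 CPM in morulae and 139 to 242 CPM in 8-cell embryos. For the 3 hypoblast markers the sums were 87.9 to 142, 115 to 123 and 103 to 190 CPM. Neither list was highest in blastocysts. In the polysome pools the oocyte markers summed to 18200 to 25500 CPM at the GV stage and the cumulus and granulosa markers to 923 to 960 CPM, and the trophectoderm markers to 12200 to 16800 CPM in blastocysts. The part of these markers in the results below was not tested.

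Polysome-occupied mRNA was compared with the transcriptome of the same stage, the question being which of these mRNAs were over- or under-represented in the heavy fractions. ALKBH5 and YTHDF1 were higher in the polysome pools than in the transcriptomes at all 6 stages. METTL14, WTAP, YTHDF3 and YTHDC1 were lower at all 6 stages, and YTHDC2 was lower at 4. METTL3, YTHDF2 and FTO passed the threshold at none. A gene was called where its adjusted p (Benjamini-Hochberg over 14612 genes) in edgeR's quasi-likelihood test lay below 0.05. Many genes differed between these kinds of library, so the counts of members have to be read against them. From the GV stage through MII, 2-cell, 8-cell and morula to blastocyst, the share of all genes called higher was 22.2%, 30.8%, 29.1%, 28.0%, 26.5% and 20%, and 2 of 10 members were called higher at each stage. The share called lower was 17.7%, 26.7%, 21.9%, 31.0%, 25.2% and 20.1% at the same stages, and the members called lower numbered 4, 4, 5, 5, 5 and 5. Over all genes, 9.92% were called higher at every stage, 5.78% lower at every stage, and 13.2% at no stage. The median log2 fold change of the 10 members ran from -1.87 in 2-cell embryos to -0.69 in GV oocytes, whereas that of all genes tested was 0.18 in 2-cell embryos, -0.27 in 8-cell embryos and between -0.08 and 0.00 elsewhere.

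**Figure D1:**
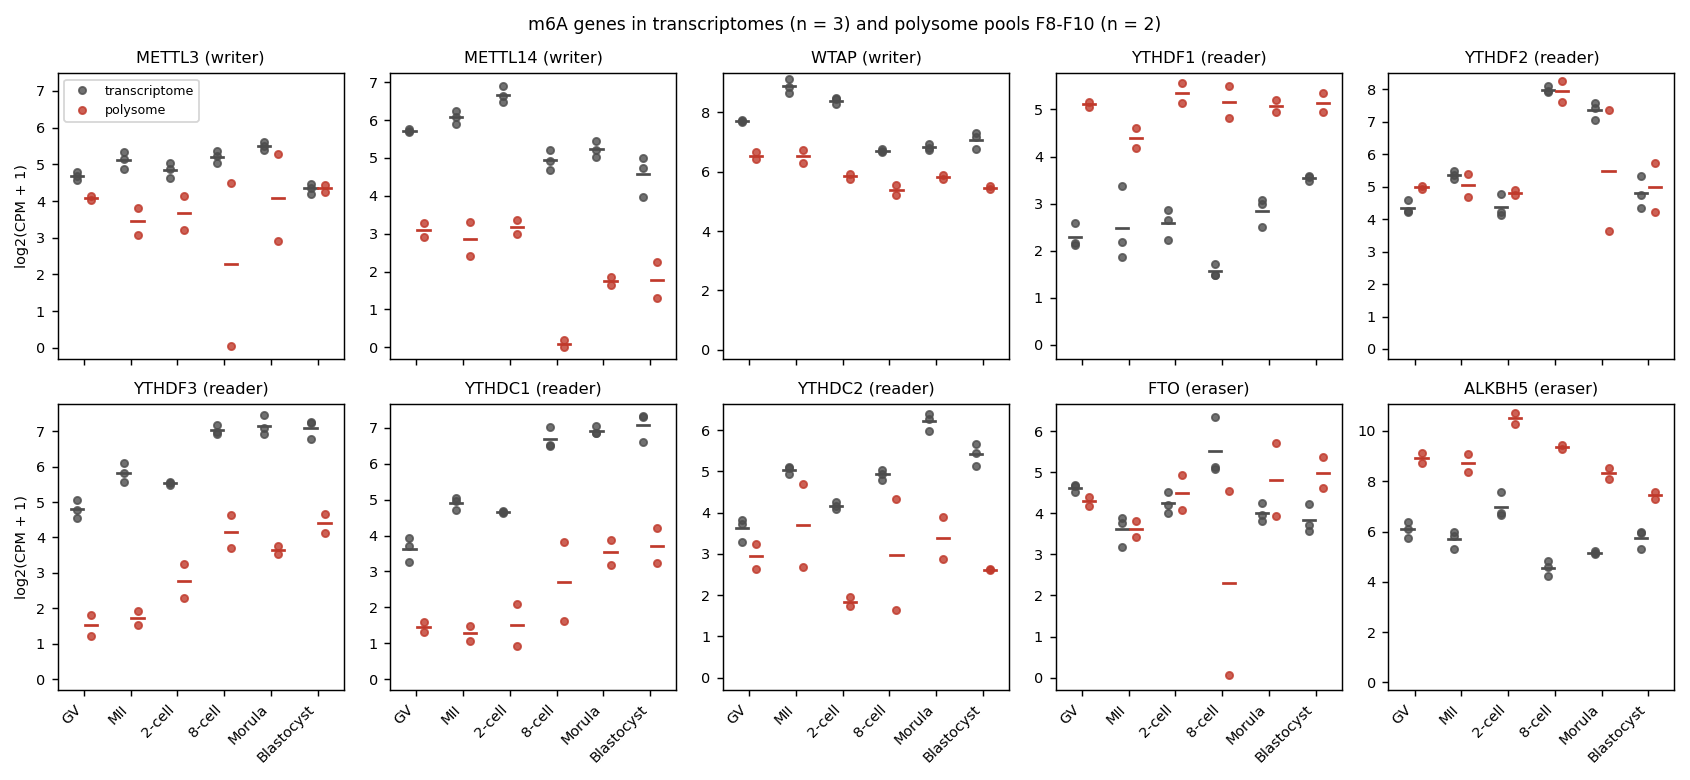
Level of each m6A gene, as log2(CPM + 1) on the vertical axis, at 6 stages on the horizontal axis. Grey points are the 3 transcriptomes and red points the 2 polysome pools (F8 to F10) of a stage, and short lines are means. ALKBH5 and YTHDF1 lie higher in red than in grey at every stage, and METTL14, YTHDF3 and YTHDC1 lie lower. In 8-cell embryos both pools fall close to 0 for METTL14, and the pool of gradient A alone does for METTL3 and FTO.

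Among the writers, METTL14 stood furthest below its transcriptome. In GV oocytes it was at 53.7, 50.5 and 51.1 CPM in the transcriptomes and at 6.48 and 8.70 CPM in the pools. In MII oocytes the transcriptomes held 74.2, 66.9 and 58.5 CPM and the pools 4.29 and 8.87 CPM, and in 2-cell embryos 118, 97.8 and 87.2 CPM stood against 6.98 and 9.32 CPM. The pools lay below every transcriptome at these stages, with log2 fold changes of -2.77 ± 0.53 (SE; adjusted p = 0.000178), -3.34 ± 0.55 (1.43e-05) and -3.63 ± 0.55 (7.43e-06).

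In 8-cell embryos METTL14 was nearly missing from the polysome pools. The transcriptomes held 24.5, 36.1 and 29.1 CPM, and the pools held 0 counts in gradient A and 5 counts in gradient B. The log2 fold change was -8.48 ± 0.75 (adjusted p = 2.38e-09). As a ratio of summed counts, 1023 in the transcriptomes and 5 in the pools, the transcriptome level was 365 times the polysome level, with an exact 95% interval of 156 to 1130 that covers counting error only. Of 2139 genes with a mean 8-cell transcriptome level of 20 to 50 CPM, 55 (2.57%) had at most 5 counts in both pools together, a limit chosen after METTL14 was seen. At the other stages 0 to 3 genes of that level did. Fraction by fraction, METTL14 in 8-cell gradient A stood at 170 CPM in F1, 18 in F3, 21.6 in F6 and 25.8 in F7 and at 0 in F2, F5, F8, F9 and F10. In gradient B the highest fraction was F4 with 4.42 CPM. With F7 added to the pool, the log2 fold change was -3.03 in place of -8.48, still past the threshold, and without gradient B it was -12.02. Fitted values against a pool with 0 or 1 count, here and below, depend on the prior count and are no bounds.

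METTL14 was found again in both pools of the later stages, still below every transcriptome. Morula transcriptomes held 42.6, 31.3 and 36.0 CPM against 2.12 and 2.65 CPM in the pools, and blastocyst transcriptomes 14.7, 30.9 and 25.4 CPM against 3.74 and 1.45 CPM. Both differences passed the test, at -3.94 ± 0.57 (adjusted p = 4.57e-06) and -3.19 ± 0.55 (6.07e-05).

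WTAP was the writer whose level in the transcriptome moved most between oocyte stages, and it was lower in the pools at every stage. The transcriptomes held 211, 205 and 208 CPM in GV oocytes and 465, 403 and 557 CPM in MII oocytes, whereas the pools held 99.7 and 85.2 CPM and then 78.2 and 106 CPM. The pools of the 2 oocyte stages overlapped, and the transcriptomes did not. The log2 fold change against the transcriptome was -1.17 ± 0.23 in GV oocytes (adjusted p = 0.000297), -2.37 ± 0.25 in MII oocytes (1.81e-08) and -2.56 ± 0.25 in 2-cell embryos (1.23e-08). In 8-cell embryos, morulae and blastocysts it was -1.34 ± 0.24, -1.02 ± 0.23 and -1.65 ± 0.24, with adjusted p of 4.33e-05, 0.000912 and 7.32e-06.

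METTL3 did not pass the quasi-likelihood test at any stage, although its fitted value was below 0 at the 5 stages before the blastocyst. In GV oocytes the transcriptomes held 22.9, 26.6 and 24.4 CPM and the pools 15.3 and 16.5 CPM. In MII oocytes 28.05, 34.3 and 39.6 CPM stood against 7.5 and 12.9 CPM. In 2-cell embryos 28.5, 31.65 and 23.8 CPM stood against 16.65 and 8.25 CPM. Both pools lay below every transcriptome at each of these stages. Blastocyst levels were nearly the same, with 21.2, 17.4 and 19.6 CPM against 20.7 and 18 CPM. The log2 fold changes lay between -1.75 ± 0.95 in 8-cell embryos and -0.00 ± 0.89 in blastocysts. DESeq2 called METTL3 lower in MII oocytes (-1.95, adjusted p = 0.042) and 8-cell embryos (-2.05, 0.032). Quasi-likelihood fits of a single stage called it lower in MII oocytes (-1.51, adjusted p = 0.00674) and 2-cell embryos (-1.29, 0.0101). The 8-cell pools disagreed, with 1 count in gradient A and 789 counts (21.4 CPM) in gradient B, beside 31.7, 40.2 and 36.6 CPM in the transcriptomes. Without gradient B the 8-cell difference was -9.55 and passed the test, so that 1 pool decides this value. The morula pools differed as well, at 6.51 and 37.7 CPM.

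The 5 YTH readers split into 3 patterns. YTHDF1, which was higher in the pools throughout, had its lowest transcriptome levels in 8-cell embryos. Its GV transcriptomes held 5.01, 3.49 and 3.35 CPM, its MII transcriptomes 9.39, 3.55 and 2.62 CPM, and its 2-cell transcriptomes 3.65, 5.28 and 6.32 CPM. The 8-cell values were 1.80, 1.79 and 2.26 CPM, those of morulae 6.91, 7.42 and 4.63 CPM and those of blastocysts 10.9, 11 and 10.2 CPM. The pools of all stages lay between 17.2 CPM in MII gradient B and 46.4 CPM in 2-cell gradient A, above every transcriptome of their stage. The log2 fold change was largest in 8-cell embryos, at 4.19 ± 0.51 (adjusted p = 2.57e-07). It was 3.08 ± 0.48 (GV, adjusted p = 1.68e-05), 1.96 ± 0.47 (MII, 0.00111), 2.99 ± 0.48 (2-cell, 1.47e-05) and 2.37 ± 0.47 (morula, 0.000225) elsewhere. In blastocysts it was 1.70 ± 0.47 (adjusted p = 0.00592), and 1.47, no longer called, without polysome pool B.

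YTHDF3 and YTHDC1 made up the second pattern, low in the pools throughout. YTHDF3 transcriptomes held 26.2, 22.6 and 32.5 CPM in GV oocytes against 2.55 and 1.35 CPM in the pools, and 67.9, 55.3 and 46.5 CPM in MII oocytes against 1.91 and 2.83 CPM. From the 8-cell stage on, the transcriptomes lay between 109 and 173 CPM and the pools between 10.5 and 24.6 CPM. Its log2 fold change ran from -4.57 ± 0.46 in MII oocytes (adjusted p = 1.04e-08) to -2.74 ± 0.41 in blastocysts (1.28e-05). YTHDC1 transcriptomes held 8.58, 14.3 and 12.1 CPM in GV oocytes and 95.8, 160 and 158 CPM in blastocysts, while the pools held 1.46 and 2.03 CPM and then 17.5 and 8.43 CPM. Its log2 fold change ran from -4.31 ± 0.66 in MII oocytes (6.22e-06) to -2.73 ± 0.61 in GV oocytes (adjusted p = 0.000895). For both genes the pools and the transcriptomes did not overlap at any stage.

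YTHDC2 was lower in the pools of 2-cell embryos (-2.70 ± 0.67, adjusted p = 0.00183), morulae (-2.86 ± 0.68, 0.00121) and blastocysts (-3.03 ± 0.69, 0.0011). In GV oocytes it was at 13.2, 12.3 and 8.82 CPM in the transcriptomes and 8.43 and 5.24 CPM in the pools, which did not pass. Its pools disagreed at the MII stage (5.44 and 25.0 CPM, transcriptomes 33.0, 29.4 and 33.2) and in 8-cell embryos (19.2 and 2.09 CPM, transcriptomes 29.7, 32.0 and 26.8). Single fractions made the higher pools. MII gradient B held 80.0 CPM in F10 beside 4.18 in F8 and 6.98 in F9. 8-cell gradient A held 53.3 CPM in F8 beside 0 in F9 and F10. The 8-cell difference of -1.47 ± 0.63 passed narrowly (adjusted p = 0.0484) and was lost without transcriptome A, B or C or without pool B, when it was -0.62. In MII oocytes the difference was -1.07 ± 0.62 and not called, and -2.58 and called without pool B.

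YTHDF2 was called at no stage, which does not show that its levels were equal. In GV oocytes it was at 23.3, 17.6 and 17.9 CPM in the transcriptomes and 31.6 and 29.8 CPM in the pools, and in 8-cell embryos at 248, 243 and 273 CPM against 307 and 196 CPM. The 8-cell pool of gradient A was highest in F10 (633 CPM), beside 90.5 in F8 and 144 in F9. Single fractions lay below every transcriptome in 19 of 20 libraries of 8-cell embryos and in 18 of 20 of MII oocytes and of morulae. They did so in 10 (GV), 13 (2-cell) and 8 (blastocyst) of 20 at the other stages. The log2 fold changes lay between -0.90 ± 0.60 in morulae and 0.65 in GV oocytes (rounded from 0.645; SE 0.58), and none passed. A quasi-likelihood fit of the GV stage alone called YTHDF2 higher in the pools (0.76, adjusted p = 0.0181). The morula pools stood apart, with 11.4 CPM in gradient A and 164 CPM in gradient B beside 191, 170 and 133 CPM in the transcriptomes. Without pool B the morula value was -3.86 and passed the test.

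The 2 erasers differed from each other. ALKBH5 had the largest rise over the transcriptome among the 10 genes at the MII, 2-cell, 8-cell and morula stages. Its GV transcriptomes held 83.3, 67.4 and 52.9 CPM, its MII transcriptomes 62.2, 55.8 and 38.1 CPM, and its 2-cell transcriptomes 100, 105 and 189 CPM. The pools of these stages held 421 and 551 CPM, 548 and 331 CPM, and 1251 and 1697 CPM. In 8-cell embryos 17.8, 22.9 and 27.7 CPM stood against 701 and 624 CPM. The pools lay above every transcriptome, by log2 fold changes of 2.84 ± 0.32 (adjusted p = 1.87e-07), 3.08 ± 0.32 (2.02e-08), 3.49 ± 0.33 (7.6e-09) and 4.86 ± 0.35 (1.04e-10). Morula transcriptomes held 33.6, 34.5 and 36.3 CPM against 270 and 372 CPM (3.20 ± 0.33, adjusted p = 3.86e-08). The smallest gap was in blastocysts, where 62.3, 39.0 and 60.8 CPM stood against 155 and 191 CPM (1.68 ± 0.32, adjusted p = 0.000173).

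FTO passed the quasi-likelihood test at no stage. Its GV levels were 24.5, 24.7 and 22 CPM in the transcriptomes and 17.2 and 20.1 CPM in the pools, and its blastocyst levels were 17.6, 10.8 and 12.2 CPM against 23.3 and 40.1 CPM. The log2 fold changes ran from -2.13 ± 0.98 in 8-cell embryos to 1.23 ± 0.90 in blastocysts. The 8-cell value was called by the likelihood ratio test of edgeR (-2.13, adjusted p = 0.0418) and by DESeq2 (-2.40, 0.0123). In the quasi-likelihood test it was called with another scaling, RLE factors (-2.40, 0.0385), and with F7 added to the pool (-2.47, 0.0316). A fit of blastocysts alone called FTO higher there (1.27, 0.0228). In 8-cell embryos its pools behaved like those of METTL3, with 1 count in gradient A and 819 counts (22.2 CPM) in gradient B, and transcriptome A (79.7 CPM) stood above B and C (33.8 and 32.7 CPM). Without pool B the 8-cell value was -9.98 and passed. Of the 2139 genes with a like transcriptome level in 8-cell embryos, 85 (3.97%) had at most 3 counts in one pool and at least 500 in the other, against 0 to 10 genes at the other stages. These limits were chosen after METTL3 and FTO were seen.

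The fractions above the polysomes were then compared with the transcriptome, a comparison added after these values were seen. F3 to F5, in which single ribosomes sediment, took the place of F8 to F10, and the 3 transcriptomes per stage were the same ones, so the outcomes are not independent. Libraries were not left out in turn here, so whether these calls rest on single pools was not tested. ALKBH5 was also higher in F3 to F5 at all 6 stages and YTHDF1 at 5, while METTL14, YTHDF3, YTHDC1 and YTHDC2 were lower at all 6 and WTAP at 4. In GV oocytes the log2 fold change of ALKBH5 was 4.49 ± 0.49 in F3 to F5 and 2.84 ± 0.32 in the polysome pools, and that of YTHDF1 was 4.87 ± 0.52 and 3.08 ± 0.48. In 8-cell embryos ALKBH5 stood at 6.48 ± 0.53 and 4.86 ± 0.35, and in blastocysts YTHDF1 stood at 0.97 ± 0.48, not called, and 1.70 ± 0.47. YTHDC2 was lower in F3 to F5 of GV oocytes (-2.17 ± 0.57, adjusted p = 0.00264) and MII oocytes (-4.16 ± 0.64, 4.82e-06), where the polysome pools had not passed. FTO was higher in F3 to F5 of MII oocytes (2.28 ± 0.67, adjusted p = 0.00517) and 2-cell embryos (1.73 ± 0.66, 0.0329). METTL3 was lower in 8-cell embryos and morulae, and YTHDF2 was lower at those stages and higher in blastocysts.

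The background in F3 to F5 was as wide as in the polysome pools. Of 14545 genes, 31.8%, 34.7%, 30.6%, 34.7%, 29.6% and 17.9% were called higher from the GV stage to the blastocyst, and the members called higher numbered 2, 3, 3, 2, 2 and 2. The share called lower was 20.9%, 24.9%, 18%, 36.7%, 29.3% and 25.0%, and the members called lower numbered 4, 5, 5, 7, 7 and 4. The median of all genes lay at 0.42, 0.54 and 0.66 at the first 3 stages and at -0.43 in blastocysts, and the values above have not been shifted by it.

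The single fractions showed the same sides of the transcriptome along most of the gradient. ALKBH5 lay above all 3 transcriptomes of its stage in 113 of 120 fraction libraries and YTHDF1 in 102 of 120. In the free RNA at the top (F1 and F2), ALKBH5 lay above them in 21 of 24 libraries and YTHDF1 in 19 of 24. The 3 other libraries of ALKBH5 lay below all transcriptomes, at 52.9 CPM in F2 of 2-cell gradient A, 26.0 CPM in F1 of morula gradient B and 0 in F1 of blastocyst gradient B, the library with the fewest genes. For YTHDF1, 4 lay below, among them F1 of 2-cell gradient A (0.218 CPM) and F1 of 8-cell gradient B (1.85 CPM). ALKBH5 averaged 1395 CPM in F1 and 399 CPM in F10 of GV oocytes, 1891 and 450 CPM in 8-cell embryos, and 2182 and 996 CPM in 2-cell embryos, beside transcriptome means of 76.0, 25.8 and 168 CPM on the same scale. At the other end, YTHDF3 and YTHDC1 lay below all 3 transcriptomes in 119 of 120 libraries each, WTAP in 118, METTL14 in 117 and YTHDC2 in 116. METTL3 lay below in 102, YTHDF2 in 86 and FTO in 58, with FTO above in 49. For ALKBH5, YTHDF1 and the genes of the opposite pattern, the side of the transcriptome was thus the same in most light fractions as in the heavy ones.

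**Figure D2:**
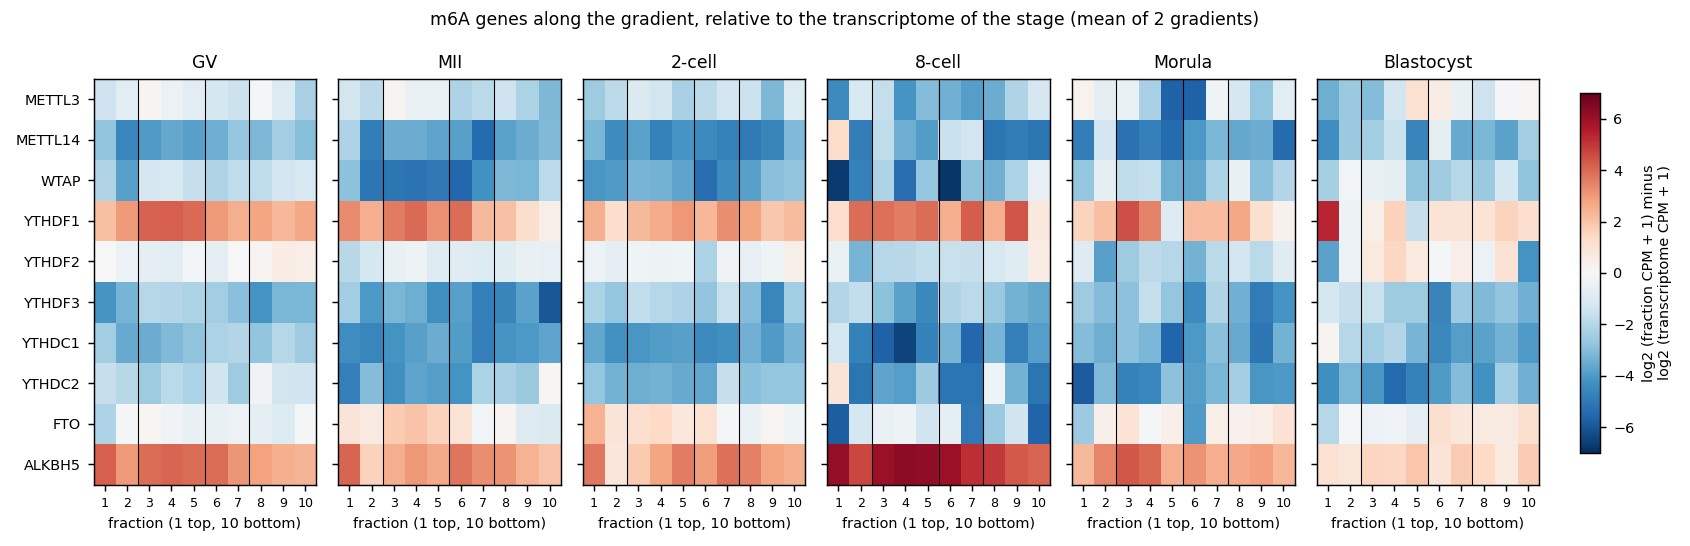
Mean level of each m6A gene in the 10 gradient fractions (horizontal axis, 1 at the top) of each stage, as the difference of log2(CPM + 1) from the transcriptome mean. Red marks fractions above the transcriptome and blue fractions below it, and vertical lines part free RNA (1 to 2), monosomes (3 to 5), intermediate (6 to 7) and polysomes (8 to 10). The rows of ALKBH5 and YTHDF1 are red, and those of METTL14, WTAP, YTHDF3 and YTHDC1 blue, over most of the gradient and not in 8 to 10 alone.

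Heavy fractions (F8 to F10) and light fractions (F3 to F5) of the same gradients were compared directly, without the transcriptomes, to ask whether an m6A gene changed in share with the number of ribosomes. None of the 10 members passed at any stage in edgeR's quasi-likelihood test over 14873 genes. At an unadjusted p below 0.05 the members numbered 3 (GV), 3 (MII), 0 (2-cell), 3 (8-cell), 1 (morula) and 0 (blastocyst), where 8.98%, 9.21%, 6.29%, 28.9%, 19.4% and 15.3% of all genes lay. The likelihood ratio test of edgeR called 0, 2, 0, 2, 1 and 0 members, against 1.61%, 1.82%, 0.148%, 21.4%, 10.2% and 7.34% of all genes in either direction. DESeq2 called 1, 2, 0, 2, 1 and 0, against 3.89%, 3.96%, 1.37%, 24.2%, 13% and 9.68%. Few genes of any kind passed the quasi-likelihood test: in the same order, 0.316%, 0.262%, 0.00%, 4.56%, 0.699% and 0.8% were higher and 0.182%, 0.175%, 0.00%, 4.80%, 0.888% and 0.632% lower.

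The 2 genes raised over the transcriptome were not raised in heavy over light fractions. ALKBH5 had log2 fold changes, heavy against light, of -1.41 ± 0.57 in GV oocytes, -1.65 ± 0.57 in 8-cell embryos and -0.91 ± 0.56 in morulae, and lay between -0.33 and 0.02 at the other stages. YTHDF1 was lowest in MII oocytes (-2.30 ± 0.58), followed by morulae (-1.77 ± 0.57) and GV oocytes (-1.55 ± 0.57), and reached 0.59 ± 0.56 in blastocysts. Among positive estimates the smallest p was that of WTAP in MII oocytes, 2.39 ± 0.62, which missed the threshold (adjusted p = 0.114). Only YTHDC2 had an estimate above 0 at all 6 stages (0.41 to 3.06), and none was called. Single fractions made its higher heavy pool in MII oocytes and in 8-cell embryos, as given above. METTL14 in 8-cell embryos had the lowest estimate (-6.33 ± 2.10, adjusted p = 0.063). In 8-cell embryos single pools made calls: without heavy pool B METTL3 was at -7.30 and FTO at -9.51, and without light pool B WTAP was at 2.73, all past the threshold.

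**Figure D3:**
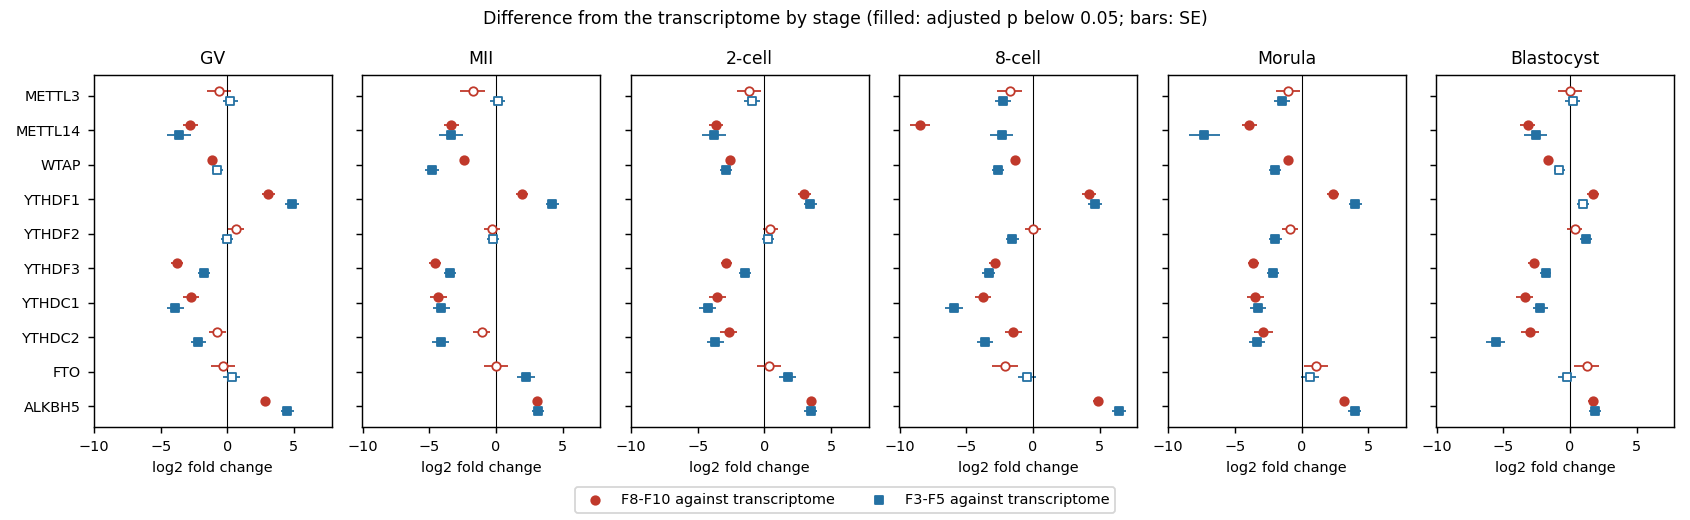
Difference of each m6A gene from the transcriptome of its stage (horizontal axis, log2 fold change, bars are the SE) for the polysome pools F8 to F10 (red circles) and for F3 to F5 (blue squares), 1 panel per stage. Filled symbols have an adjusted p below 0.05. Red and blue lie on the same side of 0 at all stages for ALKBH5, YTHDF1, METTL14, WTAP, YTHDF3, YTHDC1 and YTHDC2, whereas METTL3, YTHDF2 and FTO have no filled red symbol.

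Levels were next compared between consecutive stages, first in the transcriptomes. From the 2-cell to the 8-cell stage, which spans the activation of the embryonic genome, 7 of 10 members changed: YTHDF2, YTHDF3 and YTHDC1 rose, and ALKBH5, WTAP, METTL14 and YTHDF1 fell. At the 4 other steps 1 or 2 members were called in the quasi-likelihood test. The share of all genes that rose from 2-cell to 8-cell embryos was 27.7% and the share that fell 24.6%, beside 3 and 4 of the 10 members.

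YTHDF2 showed the steepest rise. Its transcriptomes went from 26.2, 16.6 and 17.7 CPM in 2-cell embryos to 248, 243 and 273 CPM in 8-cell embryos, a log2 fold change of 3.66 ± 0.58 (adjusted p = 1.4e-05), and its pools from 28.7 and 25.8 CPM to 307 and 196 CPM (3.21 ± 0.69, adjusted p = 0.000663). The level stayed high in morulae and fell in blastocysts to 19.1, 39.0 and 25.6 CPM (-2.56 ± 0.56, adjusted p = 0.00149). Ordered by the mean of the transcriptomes, the stages of YTHDF2 ran from 8-cell (255 ± 16 CPM, SD, n = 3) and morula (164 ± 29.3) through MII (40.4 ± 3.37) and blastocyst (27.9 ± 10.1) to 2-cell (20.2 ± 5.23) and GV (19.6 ± 3.19). The ranges of the last 3 overlapped, as did those of MII oocytes and blastocysts. In the pools the fall to the blastocyst (-1.32 ± 0.65) was not called. It was -2.20 without morula pool A, and 1.64 without morula pool B, both past the threshold.

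YTHDF3 and YTHDC1 rose together with it. YTHDF3 transcriptomes went from 46.6, 45.6 and 43.8 CPM in 2-cell embryos to 121, 124 and 144 CPM in 8-cell embryos (1.52 ± 0.34, adjusted p = 0.000664), and its pools from 3.86 and 8.62 CPM to 12 and 23.7 CPM (1.52 ± 0.42, adjusted p = 0.0047). YTHDC1 transcriptomes went from 24.7, 24.4 and 23.7 CPM to 90.6, 129 and 89.3 CPM (2.09 ± 0.50, adjusted p = 0.00131), and its pools from 0.89 and 3.26 CPM to 2.05 and 13.2 CPM (1.88 ± 0.62, adjusted p = 0.0154). The polysome ranges of YTHDC1 overlapped, and without 8-cell pool B its change was -0.01. The polysome change of YTHDF3 was 1.06 without 2-cell pool A and 0.95 without 8-cell pool B, not called in either case. YTHDC1 without 2-cell pool A was at 1.23 and not called.

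ALKBH5 fell most among the members in the transcriptome, from 100, 105 and 189 CPM in 2-cell embryos to 17.8, 22.9 and 27.7 CPM in 8-cell embryos (-2.53 ± 0.30, adjusted p = 2.77e-07). Its pools fell less, from 1251 and 1697 CPM to 701 and 624 CPM (-1.15 ± 0.35, adjusted p = 0.00987), and this call was lost without 2-cell pool B (-0.92) or 8-cell pool B (-1.07). By the mean of the transcriptomes, its stages ran from 2-cell (131 ± 50.2 CPM) through GV (67.9 ± 15.2), blastocyst (54.0 ± 13.1), MII (52.0 ± 12.5) and morula (34.8 ± 1.38) to 8-cell (22.8 ± 4.92). The ranges of GV, blastocyst and MII overlapped.

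The other 3 genes that fell were 2 writers and a reader. WTAP went from 347, 354 and 310 CPM to 108, 104 and 99.4 CPM in the transcriptomes (-1.70 ± 0.21, adjusted p = 3.48e-07), with pools at 53.7 and 60.3 CPM and then 45.7 and 36.0 CPM (-0.48 ± 0.25, adjusted p = 0.114). METTL14 fell by 1.75 ± 0.43 on the log2 scale in the transcriptomes (adjusted p = 0.00173) and by 6.61 ± 0.72 in the pools (1.45e-07). YTHDF1 fell by 1.38 ± 0.45 in the transcriptomes (adjusted p = 0.0124), a call lost without 2-cell transcriptome C (-1.19), while its pools went from 46.4 and 34.4 CPM to 27.0 and 44.4 CPM (-0.18 ± 0.52). METTL3, YTHDC2 and FTO did not pass in the transcriptomes, at 0.37 ± 0.80, 0.80 ± 0.54 and 1.43 ± 0.83.

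In the polysome pools 6 members changed from the 2-cell to the 8-cell stage. YTHDF2, YTHDF3, YTHDC1 and YTHDC2 rose, and ALKBH5 and METTL14 fell, against 21.6% of all genes that rose and 25.7% that fell. The median of all genes was -0.26 in this comparison. YTHDC2 pools went from 2.31 and 2.89 CPM to 19.2 and 2.09 CPM (2.03 ± 0.69, adjusted p = 0.0185). That rise rests on 1 library, F8 of gradient A (53.3 CPM, with 0 in F9 and F10), and without 8-cell pool A it was -0.31. It was not called without 2-cell pool A (1.88) or B (2.20) either. With F7 added to the pools the fall of METTL14 was -1.02 and not called. Without 8-cell pool B, METTL3 (-8.01) and FTO (-8.88) were called as fallen.

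At the other steps fewer members were called. From GV to MII oocytes the transcriptomes of WTAP (1.19 ± 0.20, adjusted p = 0.000128) and YTHDF3 (1.06 ± 0.34, 0.0273) were called as risen and none as fallen, against 7.72% and 10.9% of all genes. The rise of YTHDF3 was lost without GV transcriptome A or B or MII transcriptome A or B, when it lay between 0.91 and 1.08. No member changed in the pools in the quasi-likelihood test (3.08% of all genes rose and 2.35% fell), none reached an unadjusted p below 0.05 (18.6% of all genes did), and neither the likelihood ratio test nor DESeq2 called any, against 9.16% and 9.96% of all genes.

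From MII oocytes to 2-cell embryos ALKBH5 rose in the transcriptomes (1.34 ± 0.29, adjusted p = 0.00256) and in the pools (1.75 ± 0.36, 0.00358), while 6.5% of all genes rose and 6.62% fell in the transcriptomes, and 3.44% rose and 5.21% fell in the pools. YTHDF3 rose in the pools from 1.91 and 2.83 CPM to 3.86 and 8.62 CPM (1.40 ± 0.42, adjusted p = 0.0391). YTHDC2 fell there from 5.44 and 25.0 CPM to 2.31 and 2.89 CPM (-2.55 ± 0.70, adjusted p = 0.023). All 3 polysome calls depended on single pools. ALKBH5 was at 1.41 and not called without MII pool B. YTHDF3 was not called without MII pool A (1.15), MII pool B (1.69) or 2-cell pool B (0.70). YTHDC2 was at -1.08 without MII pool B, -2.39 without 2-cell pool A and -2.72 without 2-cell pool B, and not called in any of them.

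From 8-cell embryos to morulae YTHDF1 rose in the transcriptomes (1.69 ± 0.45, adjusted p = 0.0112) and no member fell, against 7.39% and 8.04% of all genes. In the pools METTL14 rose from 0 and 5 counts to 44 and 92 counts (4.84 ± 0.69, adjusted p = 1.46e-05) and ALKBH5 fell (-1.05 ± 0.35, 0.0226), against 19.0% and 18%. The call of ALKBH5 was lost without 8-cell pool A (-0.96) or morula pool A (-0.83). With F7 in the pools the change of METTL14 was -0.39. Without 8-cell pool B, which alone held counts of METTL3 and FTO in number, METTL3 (8.85), FTO (9.40) and YTHDC1 (2.41) were called as risen, and without 8-cell pool A YTHDC2 was (2.28). YTHDF2 was at -1.52 and not called, and at -4.44 and called without morula pool B.

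From morulae to blastocysts YTHDF2 fell in the transcriptomes, as given above, and no other member changed there (10.8% of all genes rose and 12.5% fell). In the pools no member passed the quasi-likelihood test, 1 had an unadjusted p below 0.05 beside 28.7% of all genes, and 5.87% of all genes rose and 8.37% fell. The likelihood ratio test and DESeq2 called 0 members, against 20.8% and 20% of all genes.

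**Figure D4:**
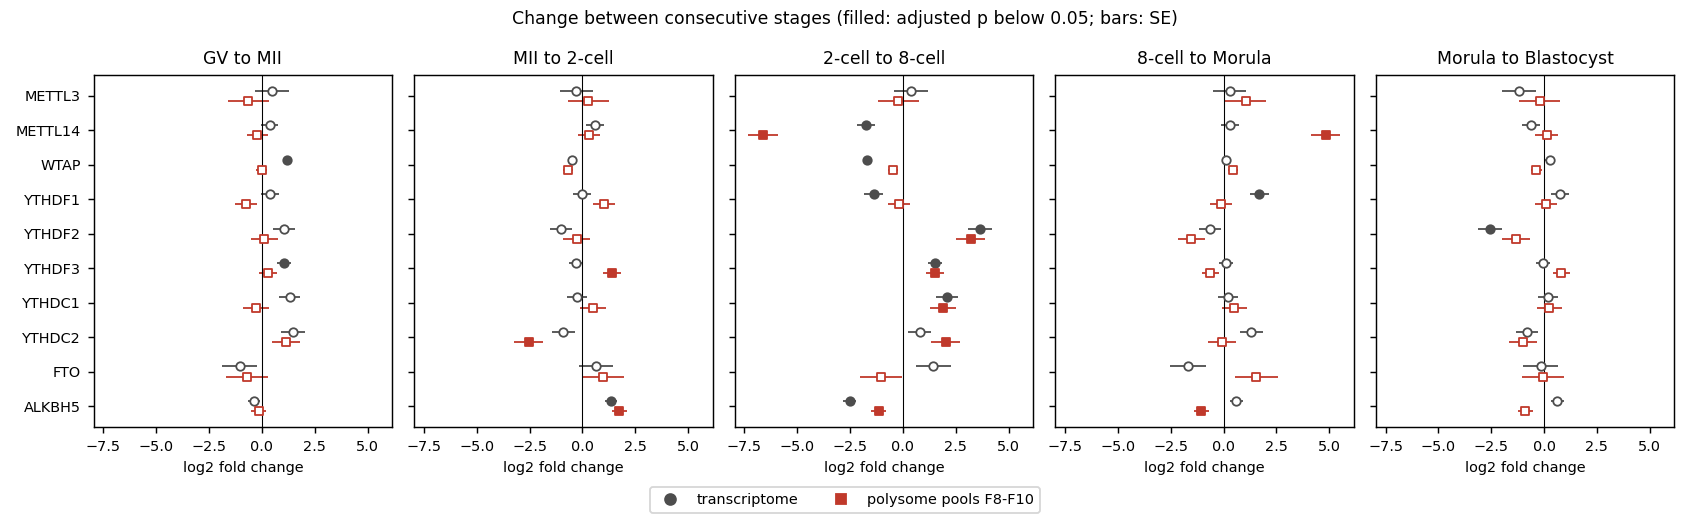
Change of each m6A gene between consecutive stages (horizontal axis, log2 fold change, bars are the SE) in the transcriptomes (grey circles) and in the polysome pools (red squares), 1 panel per step. Filled symbols have an adjusted p below 0.05. Most filled symbols are in the 2-cell to 8-cell panel, where YTHDF2, YTHDF3 and YTHDC1 lie to the right in both and METTL14 lies far to the left in the pools (-6.61).

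The difference between the polysome change and the transcriptome change was tested as an interaction, to ask where the polysome-occupied mRNA moved apart from the total. From 2-cell to 8-cell embryos the 2 changes differed for ALKBH5 (1.37 ± 0.45, adjusted p = 0.0482) and WTAP (1.22 ± 0.32, 0.0143), both of which fell less in the pools, and for METTL14 (-4.85 ± 0.79, 0.000346), which fell further there. The share of all genes was 3.45% above and 8.71% below, with a median of -0.23. From GV to MII oocytes it was WTAP (-1.2 ± 0.32, adjusted p = 0.0152), the transcriptome of which rose while its pools did not, against 7.14% above and 3.50% below. From 8-cell embryos to morulae it was ALKBH5 (-1.66 ± 0.46, adjusted p = 0.0181) and METTL14 (4.55 ± 0.80, 0.000615), against 7.05% and 5.41%, and from morulae to blastocysts ALKBH5 (-1.52 ± 0.46, 0.0298), against 6.04% and 6.23% with a median of -0.12. From MII oocytes to 2-cell embryos no member passed in the quasi-likelihood test (0.725% above and 1.08% below), 1 had an unadjusted p below 0.05 beside 14.4% of all genes, and the likelihood ratio test and DESeq2 each called 1, YTHDF3, against 4.72% and 5.68% of all genes.

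Several of these calls depended on single libraries. For ALKBH5 the call from 2-cell to 8-cell embryos was lost without 2-cell transcriptome C, 8-cell transcriptome A or B, 2-cell pool A or B, or 8-cell pool A, with values of 1.02 to 1.62. Its call from morulae to blastocysts was lost in 8 of 10 omissions (-1.66 to -1.28; without blastocyst transcriptome B or morula pool A it held), and its call from 8-cell embryos to morulae without morula pool A (-1.44). WTAP from GV to MII oocytes was lost without GV pool A (-1.09) or MII pool A (-1.02), and from 2-cell to 8-cell embryos without 2-cell pool A (1.15) or 8-cell pool A (1.05). With F7 in the pools METTL14 was at 0.73 from 2-cell to 8-cell embryos and at -0.69 from 8-cell embryos to morulae, not called. Without 8-cell pool B, METTL3 (-8.38), FTO (-10.3), YTHDC1 (-2.09) and YTHDC2 (2.09) were called at the first of these steps and METTL3 (8.56), FTO (11.1), YTHDC1 (2.18) and YTHDC2 (-2.24) at the second, while without morula pool B YTHDF2 was called from 8-cell embryos to morulae (-3.81) and to blastocysts (4.19). YTHDF1 was called from 8-cell embryos to morulae (-2.14) without 8-cell pool A.

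The 22 other genes of the pathway, fixed as a list with earlier results of these data known, held further methyltransferase subunits and enzymes, further readers and partners, MAT2A, which makes S-adenosylmethionine, and AHCY, which clears S-adenosylhomocysteine. In polysome pools against transcriptomes, 22.2%, 30.8%, 29.1%, 28.0%, 26.5% and 20% of all genes were called higher from the GV stage to the blastocyst. The shares called lower were 17.7%, 26.7%, 21.9%, 31.0%, 25.2% and 20.1%. Of the 22, those called higher numbered 5, 4, 7, 6, 6 and 6, and those called lower 7, 10, 9, 12, 10 and 6. PCIF1, which methylates the adenosine next to the cap, had the largest rise at every stage, from 3.20 ± 0.35 in morulae (adjusted p = 1.16e-07) to 7.30 ± 0.41 in MII oocytes (1.66e-12). The largest fall was that of RBMX, an RNA-binding protein of the hnRNP group, in GV oocytes (-6.44 ± 0.86) and MII oocytes (-6.39 ± 0.86). MEIOC, the meiotic partner of YTHDC2, fell furthest in 2-cell embryos (-4.79 ± 1.32), 8-cell embryos (-4.45 ± 1.29) and blastocysts (-6.25 ± 2.07), and ZC3H13, which anchors the methyltransferase in the nucleus, in morulae (-3.97 ± 1.47). In F3 to F5, 31.8%, 34.7%, 30.6%, 34.7%, 29.6% and 17.9% of all genes were called higher. The shares called lower were 20.9%, 24.9%, 18%, 36.7%, 29.3% and 25.0%. The 22 gave 7, 5, 7, 7, 6 and 3 called higher, with PCIF1 furthest at every stage (2.97 ± 0.36 to 6.71 ± 0.38). Those called lower numbered 9, 9, 9, 13, 10 and 7, led by ZC3H13 in GV oocytes (-5.65 ± 1.47), by VIRMA, the scaffold of the complex, in MII oocytes (-5.66 ± 0.61) and 2-cell embryos (-4.20 ± 0.57), and by MEIOC from the 8-cell stage on (-11.7 ± 0.95, -8.02 ± 0.97 and -6.19 ± 1.2).

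Heavy against light fractions, 1 of the 22 passed in 8-cell embryos and 1 in morulae, and both were HNRNPA2B1, a nuclear RNA-binding protein (2.17 ± 0.52, adjusted p = 0.0187, and 2.50 ± 0.53, 0.0307). At these 2 stages 4.56% and 0.699% of all genes were called higher, and 4.80% and 0.888% lower. None of the 22 passed at the other stages in the quasi-likelihood test, while 7, 2, 2 and 3 had an unadjusted p below 0.05 at the GV, MII, 2-cell and blastocyst stages, against 8.98%, 9.21%, 6.29% and 15.3% of all genes.

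In the transcriptomes, 7.72%, 6.5%, 27.7%, 7.39% and 10.8% of all genes rose over the consecutive steps. The shares that fell were 10.9%, 6.62%, 24.6%, 8.04% and 12.5%. Of the 22, 6 rose and 3 fell from GV to MII oocytes, and 3 and 3 changed to 2-cell embryos. Then 7 and 5 of the 22 changed to 8-cell embryos, 2 and 2 to morulae and 2 and 7 to blastocysts. IGF2BP1, a reader that stabilizes mRNA, had the largest rise at genome activation (6.86 ± 0.98, adjusted p = 3.49e-06) and IGF2BP2 of the same family the largest fall (-3.52 ± 0.82, 0.00106). At the other steps the largest rises were those of the splicing factor SRSF3 (1.62 ± 0.28), PCIF1 (1.88 ± 0.33), AHCY (2.08 ± 0.31), and IGF2BP3 (3 ± 0.27). The largest falls were those of METTL5, which methylates 18S ribosomal RNA (-1.74 ± 0.37), FMR1, the fragile X protein (-1.96 ± 0.38), MEIOC (-3.73 ± 1.06) and METTL16, the writer on U6 and MAT2A RNA (-3.94 ± 0.84).

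In the pools, 3.08%, 3.44%, 21.6%, 19.0% and 5.87% of all genes rose over the consecutive steps. The shares that fell were 2.35%, 5.21%, 25.7%, 18% and 8.37%. Of the 22, 2 rose and 2 fell from GV to MII oocytes, and 4 and 1 changed to 2-cell embryos. Then 6 and 6 of the 22 changed to 8-cell embryos, 4 and 3 to morulae and 1 and 5 to blastocysts. SRSF3 rose from GV to MII oocytes (1.63 ± 0.34), fell to the 2-cell stage (-1.78 ± 0.34) and rose at the 8-cell stage (5.52 ± 0.40, adjusted p = 8e-10). IGF2BP1 fell to the MII stage (-4.95 ± 1.36) and rose to the 2-cell stage (6.95 ± 1.35), IGF2BP2 fell to the 8-cell stage (-3.97 ± 1.02), FMR1 rose (2.25 ± 0.47) and IGF2BP3 fell (-1.48 ± 0.31) to the morula, and to the blastocyst IGF2BP3 rose (1.39 ± 0.31) and MEIOC fell (-7.48 ± 1.97). In the interaction the other genes called above and below numbered 1 and 2, 2 and 1, 0 and 1, 1 and 1, and 2 and 2 over the 5 steps. The shares of all genes were 7.14% and 3.50%, 0.725% and 1.08%, 3.45% and 8.71%, 7.05% and 5.41%, and 6.04% and 6.23%. The largest among the 22 were PCIF1 (2.53 ± 0.50) and HNRNPA2B1 (-2.21 ± 0.37) from GV to MII oocytes, RBM15 (2.74 ± 0.70), which guides the methyltransferase to RNA, and PCIF1 (-2.06 ± 0.50) to 2-cell embryos, and RBM15 (-2.74 ± 0.70) to 8-cell embryos. Then came HNRNPA2B1 (1.47 ± 0.37) and PCIF1 (-2.08 ± 0.50) to morulae, and SRSF3 (2.08 ± 0.43) and RBM15B (-2.73 ± 0.77), a paralogue of RBM15, to blastocysts.

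Among the members themselves, the profiles over the 30 libraries (18 transcriptomes and 12 pools, log2(CPM + 1)) were most alike for YTHDF3 and YTHDC1 (Pearson's r = 0.957), for METTL14 and WTAP (0.887) and for YTHDF1 and ALKBH5 (0.857). The most opposed were YTHDC1 and ALKBH5 (-0.857). These values are descriptions, since libraries of a stage and kind share their source and the gap between pools and transcriptomes enters every one of them. Among all 14612 genes, the 2 most like each member were PMPCB (0.914) and PANK3 (0.910) for METTL3, FAM76B (0.955) and AMN1 (0.944) for METTL14, and CCZ1 (0.965) and PSIP1 (0.962) for WTAP. For the readers they were EPN1 (0.954) and LSR (0.953) for YTHDF1, TEX101 (0.931) and GUCY2C (0.897) for YTHDF2, ACTR3 (0.962) and PPHLN1 (0.960) for YTHDF3, RTN4 and TRMT13 (0.963 each) for YTHDC1, and THAP6 (0.874) and KIAA1143 (0.872) for YTHDC2. For the erasers they were OCRL (0.750) and NRBP1 (0.736) for FTO and TRAF4 (0.977) and MOB3A (0.970) for ALKBH5.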

How the data were processed

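RNA was sequenced from 120 gradient fractions and 18 transcriptomes of bovine oocytes and embryos. The authors made the libraries with a Smart-seq2 kit and deposited expected counts per gene symbol from Salmon, not normalized. The submitters' processing notes name the build UMD 3.1, whereas the methods name a later annotation, so no coordinates are given, and levels were not compared between genes because no transcript lengths were used. Expected counts, of which 11.7% were not whole over all genes and up to 28.3% for ALKBH5, were rounded, F8 to F10 (or F3 to F5) were summed per gradient, and 0 columns were left unmapped. None of 78 replicate pairs held identical values.

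Counts were filtered with filterByExpr, scaled with TMM and fitted with edgeR 4.0.16 (R 4.3.3) by the quasi-likelihood test, in 1 model of 30 libraries (18 transcriptomes, 12 polysome pools) and 1 of 24 (heavy and light pools), and again with F3 to F5 in place of F8 to F10. Tests were two-sided, with Benjamini-Hochberg adjustment over every gene tested and calls below 0.05. SEs are the log2 fold change divided by the root of F. The likelihood ratio test of edgeR, DESeq2 1.42.0, other scaling, filters, pools and models, a replicate block and leaving out each replicate were alternatives. The scripts (Python 3.11.15) were tested on simulated data. Counts of 0 allow up to 3 counts, and intervals cover counting error only.

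Named were all 10 members, the other m6A genes with the largest called change in each direction in each comparison, and the 2 genes most like each member over the 30 libraries. The members were given, and the other lists were written with earlier results of these data known. Gradients and transcriptomes with the same letter were not paired in the model.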

Additional observations from a re-analysis of the deposited data

Results flagged for a closer look

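Polysome change and transcriptome change of the same gene differed, by the interaction test in edgeR, in 7 cases. None of the 7 was called when a replicate block was added, with letters A and B as pairs. From GV to MII oocytes the difference was -1.20 (log2) for WTAP. From 2-cell to 8-cell embryos it was 1.37 for ALKBH5, 1.22 for WTAP and -4.85 for METTL14. From 8-cell embryos to morulae it was -1.66 for ALKBH5 and 4.55 for METTL14, and from morulae to blastocysts it was -1.52 for ALKBH5. Both METTL14 values rest on the 8-cell pools, with 0 and 5 counts, and both changed sign when F7 was counted as polysome.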

How the results depend on the processing

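Counts of members called are given against the main count. No member value that was called in either setting changed sign with RLE factors, library totals, no filter, DESeq2 or the likelihood ratio test. Of 270 member values, 5, 16, 6, 5 and 0 that were called in neither did so, among them METTL3 in blastocysts without the filter. In polysome pools against transcriptomes the count of members called stayed within 1.5 times under each alternative run, with 6 to 8 called when a library was left out. From GV to MII oocytes, 2 members changed in the transcriptomes, against 4 with the likelihood ratio test, DESeq2, RLE factors or F7 to F10 as the pool, 1 with library totals, no filter or F9 to F10, and 7 when only the stages compared were fitted. DESeq2 gave 2 in place of 1 from MII oocytes to 2-cell embryos and from morulae to blastocysts, and fitting only the stages compared gave 6, 4 and 4 in place of 1 at the MII to 2-cell, 8-cell to morula and morula to blastocyst steps. In the polysome pools that fit, with fewer samples, gave 0, 1 and 0 in place of 3, 6 and 2 from MII oocytes to morulae, and F9 to F10 gave 1 and 3 in place of 3 and 6 at the first 2 of these steps.

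The interaction counts were 1, 0, 3, 2 and 1 over the 5 steps. Adding a replicate block, with letters A and B as pairs, gave 0 at all of them, so that all 7 calls were ended. It also ended the call for YTHDF1 in MII oocytes (1.79) and blastocysts (1.65) and for YTHDC2 in 8-cell embryos (-2.27) in pools against transcriptomes, and for YTHDF3 from MII oocytes to 2-cell embryos in the pools (1.38). Between gradients and transcriptomes, the correlation of A minus B differences across genes lay between -0.0652 and 0.0182. Heavy and light pools of the same gradient gave only -0.015 to 0.148. These correlations therefore cannot decide whether the letters pair gradients with transcriptomes. The replicate block changed no call of a heavy against light comparison. F9 to F10 gave 0 interactions from GV to MII oocytes, 1 from 8-cell embryos to morulae and 0 to blastocysts, library totals gave 0 at the last step, and fitting only the stages compared gave 0 and DESeq2 gave 4 from 8-cell embryos to morulae. From MII oocytes to 2-cell embryos the likelihood ratio test, DESeq2 and F7 to F10 each gave 1. Heavy against light, where the main count was 0, DESeq2 gave 1 and the fit of the stage alone 2 in GV oocytes. In MII oocytes the likelihood ratio test and DESeq2 gave 2 and the stage alone 1. In 8-cell embryos both tests gave 2 and F3 to F7 as the light pool gave 1, and in morulae both tests gave 1.

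Other pools changed the sign of 6 values that were called in one of the settings: FTO in MII oocytes with F3 to F5 in place of F8 to F10 (2.28), YTHDC2 from 2-cell to 8-cell embryos (-0.76) and WTAP from 8-cell embryos to morulae (-0.91) in the pools with F9 to F10, and METTL14 with F7 to F10 from 8-cell embryos to morulae in the pools (-0.39) and in the interactions (0.73 and -0.69). F7 of 8-cell gradient A alone held METTL14 among F7 to F10 in that gradient, and the cause of the other sign changes was not tested. Values called in neither setting also changed sign, 6 of 60 with F3 to F5, 18 of 210 with F9 to F10, 8 of 210 with F7 to F10 and 3 of 60 with F3 to F7 as the light pool.

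Leaving out each replicate in turn gave 1 to 2 members from GV to MII oocytes in the transcriptomes. In the pools it gave 0 to 2 from MII oocytes to 2-cell embryos, 3 to 5 to 8-cell embryos, 1 to 5 to morulae and 0 to 1 to blastocysts. In the interactions it gave 0 to 1 from GV to MII oocytes, 1 to 7 from 2-cell to 8-cell embryos, 1 to 6 to morulae and 0 to 1 to blastocysts, and heavy against light in 8-cell embryos 0 to 2. Where an arm kept 1 pool, that pool was assumed to vary like the other groups. YTHDC2 in the pools ranged from -0.31 to 2.88 from 2-cell to 8-cell embryos and from -0.92 to 2.28 to morulae, YTHDC1 from -0.0106 to 3.09 at the first of these steps, YTHDF2 from -2.29 to 1.64 from morulae to blastocysts, and METTL3 heavy against light in 8-cell embryos from -7.30 to 1.52. With 2 gradients a stage, and pools of 8-cell embryos and morulae that differ most, values at these stages are the least precise.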
